A study of Mus musculus with 72 samples.

Results

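The MHC class II antigen presentation genes measured here were *H2-Aa*, *H2-Ab1*, *H2-Eb1*, *Cd74*, *H2-DMa*, *H2-DMb1* and *Ciita*, 7 of the 55401 genes counted. They were chosen by name as genes of the class II pathway. All 7 passed the filter on low values (a mean normalized count above 5) in gastrocnemius, lung, heart, liver and white fat.

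The 72 poly(A) RNA-seq libraries came from male mice. WT mice were littermates of global *Bmal1*-KO mice (KO), which lack the core clock transcription factor BMAL1 in every tissue. KO+AAV mice were KO mice given, at postnatal day 5, an AAV9 vector with HA-tagged *Bmal1* under CK6, a promoter active in skeletal muscle, so every KO+AAV group carried the deletion, the viral vector and the transgene together. KO+GFP mice were KO mice given AAV9 with GFP under the same promoter at the same age, and were set against their own control KO mice. Gastrocnemius, a hindlimb muscle, gave 6 WT, 6 KO and 7 KO+AAV libraries at 10 weeks and 5 of each at 40 weeks. Outside the GFP experiment, which held 3 KO+GFP and 3 control KO muscle libraries at 10 weeks, tissue was taken at Zeitgeber time 1. Lung, heart, liver and white fat gave 4 KO and 4 KO+AAV libraries each at 40 weeks, with no WT group and no GFP group. The 10-week muscles of the main experiment were sequenced at 2 sites, ICBR (3 WT, 3 KO and 4 KO+AAV) and Novogene (3 of each), the 40-week and GFP muscles at Novogene alone, and the other tissues at ICBR alone. In 10-week muscle of the main experiment, reads counted on genes ranged from 32563431 to 41733282 at ICBR and from 10076827 to 11811506 at Novogene. Site and read depth therefore go together at that age. Reads ranged from 9325122 to 13610317 in 40-week muscle, from 6754312 to 8515400 in the GFP experiment and from 36903079 to 50755829 in the other tissues.

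MHC class II molecules are pairs of an α and a β chain that carry peptides from engulfed proteins to the cell surface, where CD4+ T cells read them. *H2-Aa* and *H2-Ab1* encode the chains of I-A and *H2-Eb1* the β chain of I-E, *Cd74* encodes the invariant chain that guards the groove until the endosome, and *H2-DMa* and *H2-DMb1* encode the chains of H2-DM, which exchanges the invariant chain remnant for peptide. *Ciita* encodes the coactivator that joins the RFX, CREB and NF-Y factors on class II promoters. Dendritic cells, B cells and macrophages are the usual carriers, interferon gamma induces the pathway in other cells, and resting muscle fibers carry little of it.

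In GRCm38 coordinates, 5 members lay within the MHC of chromosome 17: *H2-DMa* at chr17:34119541-34139101, *H2-DMb1* at chr17:34153072-34160230, *H2-Ab1* at chr17:34257689-34269419 and *H2-Eb1* at chr17:34305867-34316674 on the plus strand, and *H2-Aa* at chr17:34282744-34287823 on the minus strand. *Ciita* and *Cd74* lay on other chromosomes. Class II promoters are known for an X box and a Y box that sit a short, fixed distance apart. The promoter stretches of *H2-Aa* and *H2-Eb1* are shown because these genes varied together across the muscle libraries and lie close to each other in the MHC. They are taken from RefSeq (GRCm38.p6), run 5′ to 3′ on the gene's strand from 150 to 21 bases before the start, and have the matches to the searched motifs in capitals, namely TGACGTCA and the Y box TGATTGG in *H2-Aa*, and the X box core and the Y box in *H2-Eb1*.
H2-Aa (chr17:34287844-34287973, minus strand): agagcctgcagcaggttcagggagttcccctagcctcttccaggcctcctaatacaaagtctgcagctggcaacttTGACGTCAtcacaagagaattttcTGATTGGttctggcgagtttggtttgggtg
H2-Eb1 (chr17:34305717-34305846, plus strand): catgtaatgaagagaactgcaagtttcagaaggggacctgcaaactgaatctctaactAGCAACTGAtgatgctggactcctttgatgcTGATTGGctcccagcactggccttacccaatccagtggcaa

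Both strands of the 250 bases before each start were searched, and 4 of the 7 members had an entry in the promoter table. The X box core AGNNACNGA matched *H2-Eb1* at 92 to 84 bases before the start and *H2-DMb1* at 95 to 87, with a further *H2-DMb1* match on the other strand at 163 to 155. It was also present in 14.7% of all 32851 promoters of that length. The Y box TGATTGG matched *H2-Aa* at 50 to 44, *H2-Eb1* at 61 to 55 and *H2-DMb1* at 63 to 57 bases before the start, and 7.23% of promoters held it. TGACGTCA, a cyclic AMP element, matched *H2-Aa* at 74 to 67, with 1.55% of promoters holding it. Neither the E-box CACGTG, the motif that BMAL1 is known to bind (6.02% of promoters), nor TTCNNNGAA, the gamma-activated site (7.02%), was found in the windows of the 4 members. None of the 5 motifs was found in the windows of *H2-DMa*. The *H2-DMa* stretches, at chr17:34122682-34122811 and chr17:34125368-34125497, lay inside the gene span given above and past its first base. Any start elsewhere in *H2-DMa* was not searched, so this absence covers these windows alone.

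The deleted gene was examined first. *Bmal1* is listed under its symbol *Arntl*, and its count covers the whole gene whichever exons are deleted. At 10 weeks *Arntl* ranged from 402 to 634 normalized counts in WT, from 196 to 296 in KO and from 169 to 281 in KO+AAV muscle. WT therefore lay above both other groups without overlap, and WT exceeded KO by 1.14 ± 0.19 on the log2 scale (SE, adjusted P = 6.6e-05 by limma). At 40 weeks WT muscle held 480 to 608 normalized counts, and the KO libraries held 381, 1039, 395, 312 and 308. The library labelled KO replicate 2 at 40 weeks thus stood above every WT library, against its label, and the 40-week muscle comparisons and correlations are given with and without it. *Arntl* was not higher on average in KO+AAV than in KO muscle at either age, so this count does not check the vector. In the other tissues it was higher in KO+AAV than in KO liver without overlap, at 781 to 1231 against 584 to 679 (a DEG, 0.58 ± 0.14, adjusted P = 0.997 by limma), and at 627 to 821 against 484 to 653 in heart (0.32 ± 0.14), while lung differed by 0.13 and white fat by −0.01.

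Other libraries also stood apart. In heart, KO replicate 2 held 1211550 summed normalized counts of 4 liver markers, where the other 7 heart libraries held 222 to 299. In white fat, KO replicate 2 held 9372 summed counts of 6 natural killer cell markers against 141 to 415 in the others. At 10 weeks KO+AAV replicate 4 had the highest fibroblast marker sum (138139, the rest of its group 18772 to 27062) and KO+AAV replicate 5 the highest macrophage marker sum (8820, the rest 958 to 2850). At 40 weeks KO+AAV replicate 2 and KO replicate 1 had the lowest summed counts of the 7 class II genes, 250 and 288, as well as the lowest macrophage marker sums, 330 and 469. In bulk muscle, fewer class II cells and less class II RNA per cell cannot be told apart.

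Whether the *Bmal1* vector went with a change in class II genes was asked first in 10-week gastrocnemius, where both KO and KO+AAV muscles were sequenced at both sites. With site in the fit the 7 differences of KO+AAV from KO muscle were all positive, from 0.30 to 1.31 on the log2 scale with a median of 1.15, while the median over all 16199 genes tested was 0.01. Only *H2-Aa* passed the study's threshold for a differentially expressed gene (DEG, P under 0.01), which 2.63% of all genes passed in this comparison, and no member passed an adjusted P of 0.05 in limma, while 5 of the 7 had an unadjusted P under 0.05, as had 9.23% of all genes. Count models on the recovered reads called 3 members with edgeR and 4 with DESeq2, which called 3.37% and 4.37% of all genes. In limma no member was a DEG with a pseudocount of 0.5, without the filter, with a mean above 50 or without the site term.

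*H2-Aa*, the α chain of I-A, had a lowest, median and highest normalized count of 43.7, 150 and 264 in KO muscle and of 203, 320 and 598 in KO+AAV muscle. By site, KO muscle held 148, 147 and 264 at ICBR and 174, 152 and 43.7 at Novogene, and KO+AAV muscle held 203, 307, 241 and 515 at ICBR and 598, 377 and 320 at Novogene. At Novogene every KO+AAV library lay above every KO library, while at ICBR KO replicate 3 overlapped the lower KO+AAV libraries. The fitted difference was 1.31 ± 0.48 on the log2 scale (SE, 95% interval 0.34 to 2.28), with an adjusted P of 0.378 by limma. An exact two-sided permutation test within sites gave P = 0.00857, where 700 arrangements allow no P below 0.00143.

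*H2-Ab1*, the partner β chain, ran from 63.9 to 261 normalized counts in KO muscle (median 134) and from 188 to 526 in KO+AAV muscle (median 300). It differed by 1.15 ± 0.46 (adjusted P = 0.442 by limma). *H2-Eb1*, the β chain of I-E, ran from 53.8 to 268 in KO (median 136) and from 175 to 494 in KO+AAV muscle (median 263), a difference of 1.08 ± 0.45. *Cd74*, the most abundant member, ran from 109 to 448 in KO (median 222) and from 333 to 940 in KO+AAV muscle (median 510), a difference of 1.15 ± 0.45 (adjusted P = 0.43 by limma). In each of these 4 genes KO replicate 3 was the highest KO library and KO replicate 7 the lowest, KO+AAV replicates 4 and 5 were the highest of their group, and the groups overlapped.

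The editing and control genes of the pathway behaved less alike. *H2-DMb1*, the β chain of H2-DM, had 1.68 to 28.3 normalized counts in KO (median 14.0) and 10.9 to 64.5 in KO+AAV muscle (median 25.2), a difference of 1.26 ± 0.55 (adjusted P = 0.494 by limma). Its lowest KO values rested on 1 and 3 reads. *H2-DMa*, the α chain of the same pair, split by site and not by group: 19.9 to 34.6 in KO and 32 to 42.8 in KO+AAV muscle at ICBR, against 97.5 to 178 and 113 to 147 at Novogene. *Ciita* was also lower at ICBR, though with overlap, with 7.14 to 18.9 and 10.4 to 41.3 at ICBR against 39.9 to 50.5 and 36.4 to 68.6 at Novogene. Their KO+AAV differences, with site in the fit, were 0.30 ± 0.16 and 0.38 ± 0.30.

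**Figure D1:**
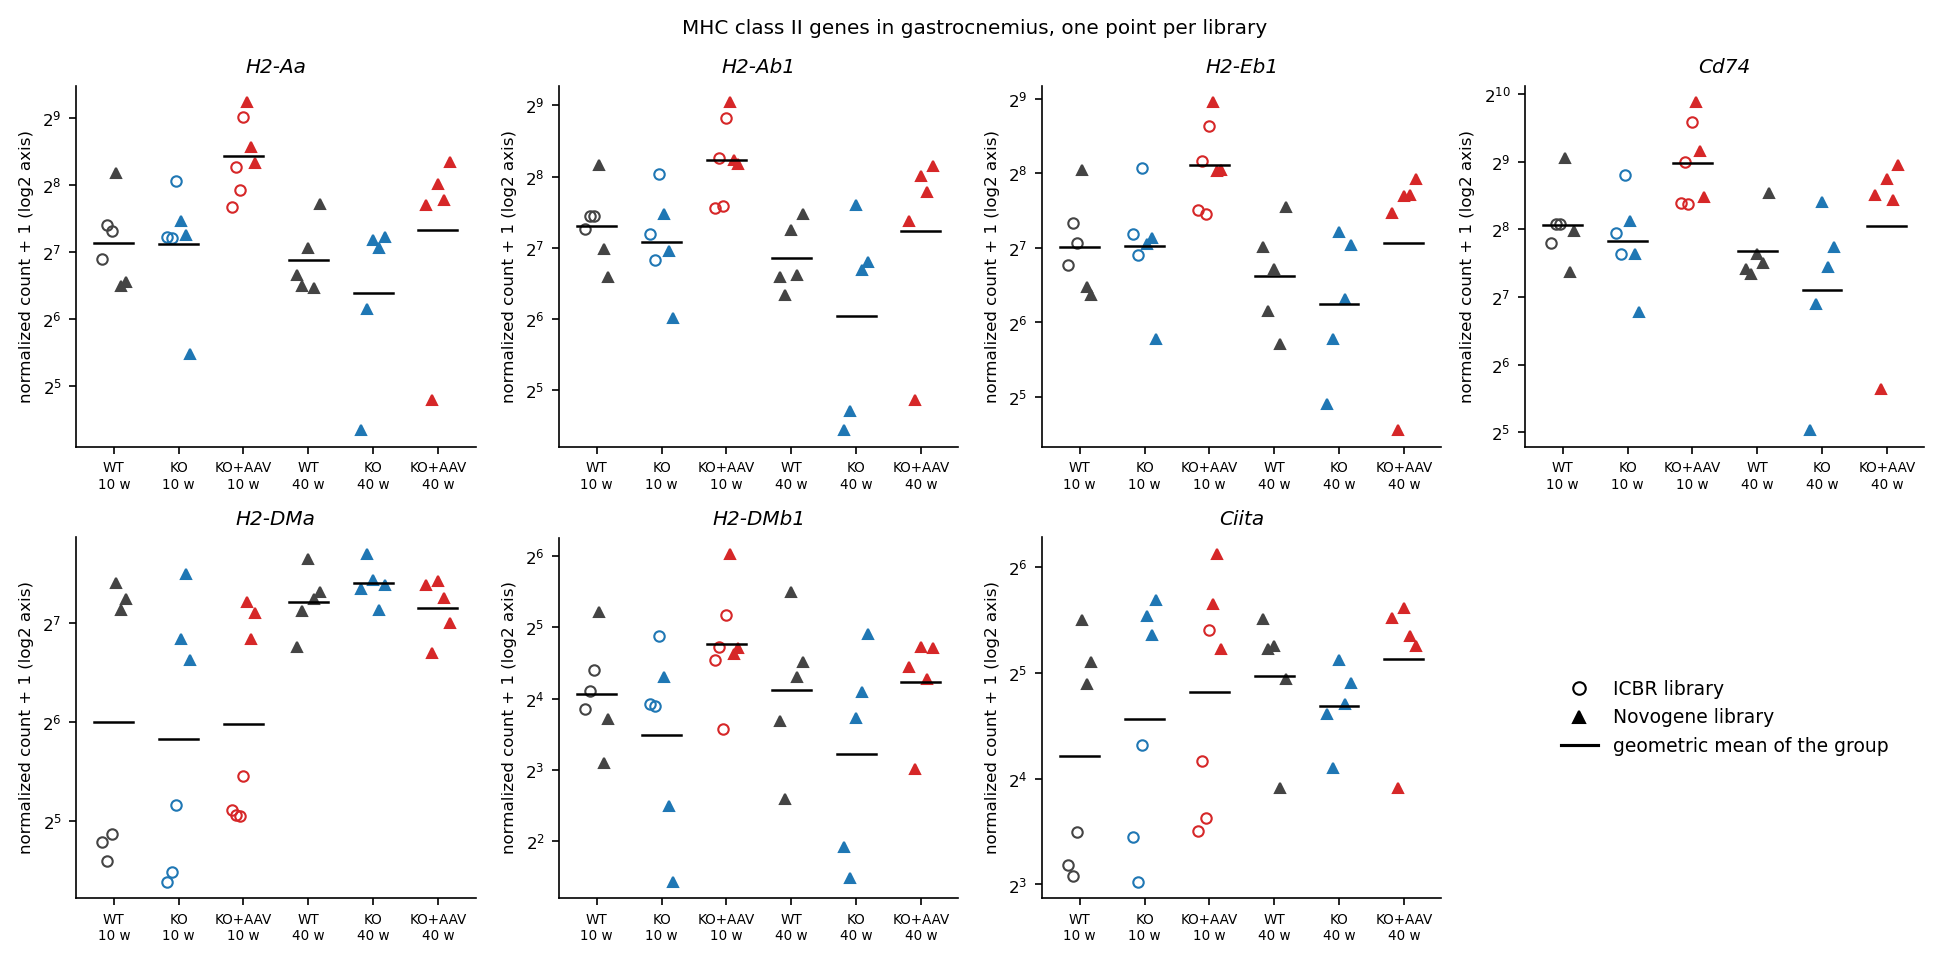
Normalized counts of the 7 class II genes in each gastrocnemius library (log2 vertical axis) for WT, KO and KO+AAV muscle at 10 and 40 weeks, with circles for ICBR, triangles for Novogene and a bar at the geometric mean. At 10 weeks the KO+AAV libraries of *H2-Aa* run from 203 to 598 and those of KO from 43.7 to 264, and *H2-DMa* divides by site.

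Part of the *H2-DMa* and *Ciita* exons coincide with a gene on the opposite strand, 10.4% of exon bases with *Brd2* and 3.45% with *Dexi*. Whether the counting used strand is not given in the sources used here, so reads of these overlapping parts cannot be told apart. This is a limit on both genes wherever they are named. It also holds for genes named further on, such as *Rfxank* (33.8%), *Ctsl* (26.85%), *Rfx5* (26.76%), *Csf1r* (15.12%) and *Ctsb* (12.79%).

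The site effect on the vector difference was examined in the 19 libraries at 10 weeks. Libraries from ICBR alone gave *H2-Aa* a difference of 0.73 ± 0.31 (limma, adjusted P = 0.49) and the 7 genes a median of 0.58. Libraries from Novogene alone gave *H2-Aa* 1.97 ± 0.77 (limma, adjusted P = 0.91) and a median of 1.67, with *H2-DMb1* at 2.38. No member was a DEG at either site alone (limma). The difference between the sites was itself tested and no member was a DEG by limma, edgeR or DESeq2, where limma called 0.753% of genes. *H2-DMb1* had the smallest P, with 2.11 ± 0.89 more at Novogene (adjusted P = 0.992 by limma).

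Without KO+AAV replicates 4 and 5, the libraries with the highest fibroblast and macrophage sums, *H2-Aa* differed by 1.02 (limma, adjusted P = 0.988), the median was 0.85 and no member was a DEG. The *H2-Aa* call also rested on single libraries: its P was above 0.01 when any of 10 of the 13 libraries was left out, and *H2-Aa* then differed by 0.99 to 1.39. Leaving out KO replicate 3 instead gave 4 DEGs. The share of all genes called in that fit is not given, so this count is not set against all genes.

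At 40 weeks the KO+AAV libraries of *H2-Aa* held 206, 26.7, 257, 218 and 322 normalized counts and the KO libraries 19.3, 69.8, 144, 132 and 149. Apart from KO+AAV replicate 2, every KO+AAV library lay above every KO library. *Cd74* had the same layout, with 362, 49.1, 427, 346 and 496 in KO+AAV against 31.6, 118, 339, 173 and 212 in KO muscle. *H2-Ab1* held 166, 28.1, 255, 220 and 283 against 20.6, 25.1, 193, 102 and 110.

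None of the 7 genes was a DEG at 40 weeks by limma, edgeR or DESeq2, where they called 3.25%, 3.12% and 3.62% of all genes, 1 had an unadjusted P under 0.05 by limma (10.1% of all genes, and no member without KO replicate 2), and their median difference was 0.93 against 0.02 over all genes. *H2-Ab1* had the smallest P (1.19 ± 0.53, adjusted P = 0.433 by limma, and 0.86 ± 0.53 without KO replicate 2), *H2-Aa* differed by 0.93 ± 0.54 and *Cd74* by 0.96 ± 0.52, while *H2-DMa* differed by −0.25. The exact permutation P of *H2-Aa* was 0.31, where 252 arrangements allow no P below 0.00794. Without KO+AAV replicate 2 the median was 1.45 and 4 members were DEGs, without KO replicate 1 the median was 0.44, and without KO replicate 3 there was 1 DEG. The share of all genes called in these left-out fits is not given, so their counts are not set against all genes. Without KO replicate 2, whose *Arntl* count went against its label, the median was 0.70 with *H2-Aa* at 0.87 and *Cd74* at 0.90. The difference between the vector effects at the 2 ages was itself tested: it had a median of −0.25 (−0.38 without KO replicate 2), and none of the 7 was a DEG by limma, edgeR or DESeq2, where limma called 1.08% of all genes.

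Against WT muscle, class II levels in KO muscle were not distinguishable at these sample sizes. In 10-week WT muscle *H2-Aa* had a lowest, median and highest count of 89.3, 138 and 288, inside the KO range but for 1 library. No member was a DEG by limma, edgeR or DESeq2, or had an unadjusted P under 0.05, for WT against KO at 10 weeks (median 0.17, 10.9% of all genes called) or at 40 weeks (median 0.49, 22.5% called, and 0.42 without KO replicate 2). Both comparisons use the same KO libraries as the vector comparisons, and so do not stand as separate evidence.

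WT against KO+AAV muscle gave a median of −0.92 at 10 weeks, with *H2-Aa* at −1.28 ± 0.48 (adjusted P = 0.122 by limma), *H2-Eb1* at −1.09 and *Ciita* at −0.73. With limma none was a DEG and 3 had an unadjusted P under 0.05, in a comparison where 8.75% of all genes were DEGs and 18.1% had an unadjusted P under 0.05. Each of edgeR and DESeq2 called 3 members, where they called 9.86% and 11.5% of all genes. At 40 weeks the median was −0.37 with no DEG (14.6% called). From 10 to 40 weeks the median difference was −0.21 for WT muscle, −0.71 for KO and −0.91 for KO+AAV, again with no DEG among the 7 by limma, edgeR or DESeq2, where limma called 2.27% of all genes between the WT ages and 12.1% between both the KO and the KO+AAV ages. Without KO replicate 2 at 40 weeks the KO value was −0.61.

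The GFP experiment asked whether a vector without *Bmal1* went with a class II difference. Of the 7 genes, 5 were DEGs and higher in KO+GFP than in control KO muscle, where 8.24% of all genes were DEGs in either direction. Count models called 5 members with edgeR and 2 with DESeq2 (*Cd74* and *H2-Eb1*), where they called 8.47% and 6.65% of all genes. Without control KO replicate 1 or 3 limma called 2 members, and the share of all genes called in those fits is not given. *Cd74* and *H2-Eb1* rose at an adjusted P under 0.05, which 3.09% of all genes met. The median difference of the 7 was 1.21, and that of all 14477 genes tested was 0.00.

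*Cd74* held 198, 387 and 240 normalized counts in KO+GFP muscle and 92.3, 141 and 81.9 in control KO muscle, so the groups did not overlap. It rose by 1.36 ± 0.24 on the log2 scale (SE, 95% interval 0.84 to 1.89, adjusted P = 0.0104 by limma). *H2-Eb1* held 118, 199 and 173 against 54.6, 98.9 and 54.9, again without overlap. It rose by 1.25 ± 0.24 (95% interval 0.71 to 1.78, adjusted P = 0.0185 by limma). The adjusted P of *Cd74* was 0.0534 without KO+GFP replicate 3, and that of *H2-Eb1* was 0.0705, 0.117 and 0.0578 without KO+GFP replicate 2, KO+GFP replicate 3 and control KO replicate 3.

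*H2-Aa* held 122, 209 and 134 in KO+GFP and 50.6, 122 and 50.8 in control KO muscle, control KO replicate 2 being level with the lowest KO+GFP library. Its difference was 1.14 ± 0.31 (adjusted P = 0.0683 by limma), and that of *H2-Ab1*, at 106, 181 and 154 against 46.7, 117 and 42.5, was 1.21 ± 0.33. *H2-DMb1* held 15.8, 9.09 and 21.1 against 3.97, 7.96 and 2.07, which is 11 to 24 reads against 2 to 7, and differed by 1.59 ± 0.50 (adjusted P = 0.11 by limma). Control KO replicate 2 was thus the highest control in all 5 of these genes.

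*H2-DMa*, at 42.8, 65.3 and 62.6 against 38.7, 61.4 and 48.7, differed by 0.19 ± 0.23. *Ciita*, at 6.75, 25.6 and 23.8 against 23.8, 18.2 and 22.8, differed by −0.38 ± 0.43. In *Ciita*, KO+GFP replicate 1 alone lay below the controls. Among the 7, 3 genes (*H2-Eb1*, *Cd74* and *H2-DMb1*) were higher in KO+GFP muscle with no overlap, as were 11% of all genes, and their exact permutation P was 0.1, the smallest that 3 against 3 allows.

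**Figure D2:**
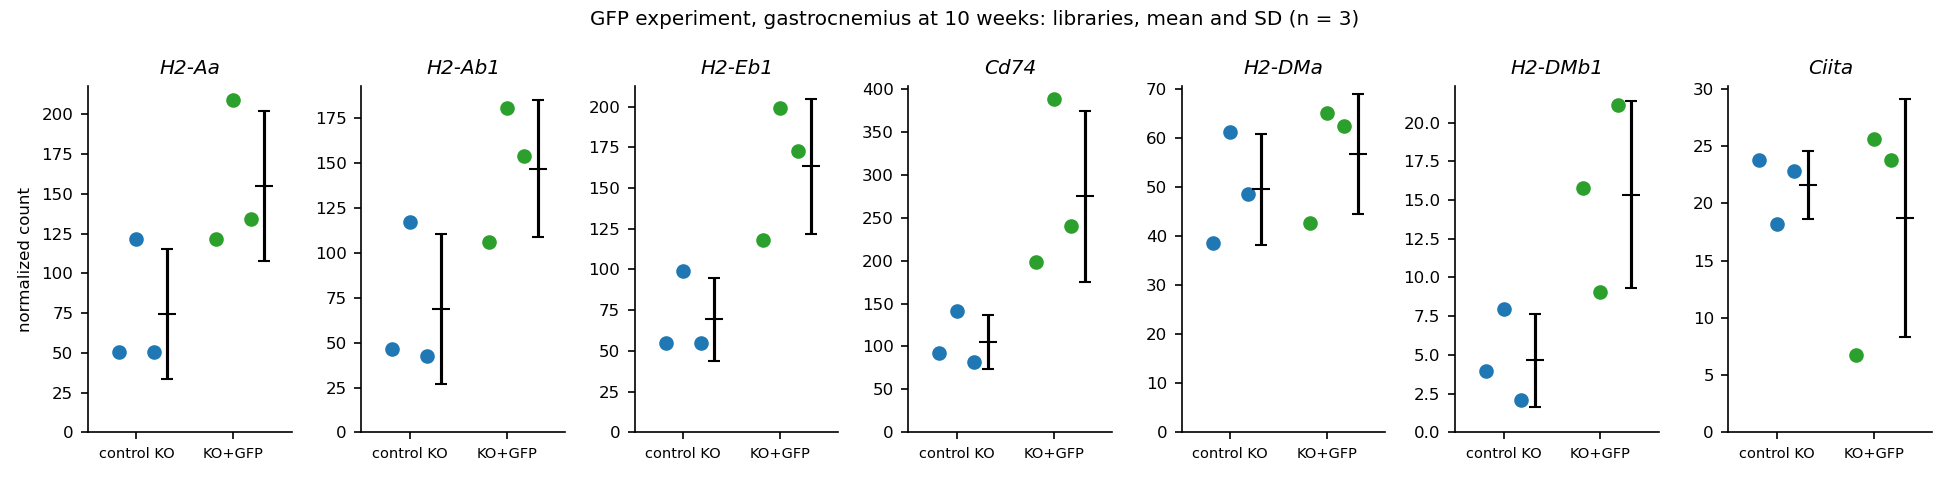
Normalized counts of the 7 class II genes in the 3 control KO and 3 KO+GFP gastrocnemius libraries at 10 weeks (1 point per library, with the mean and SD beside them, each panel on its own linear axis from 0). *Cd74* runs from 198 to 387 in KO+GFP and from 81.9 to 141 in control KO muscle, and the groups overlap in *Ciita*.

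The GFP libraries were normalized in a table of their own and no mouse of the *Bmal1* vector groups is in it. The size of the class II difference with GFP (median 1.21) and with *Bmal1* (median 1.15 at 10 weeks) therefore stand side by side, and the difference between the vectors was not tested. The GFP mice had no *Bmal1* transgene, and no KO group was given *Bmal1* without a vector.

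**Figure D3:**
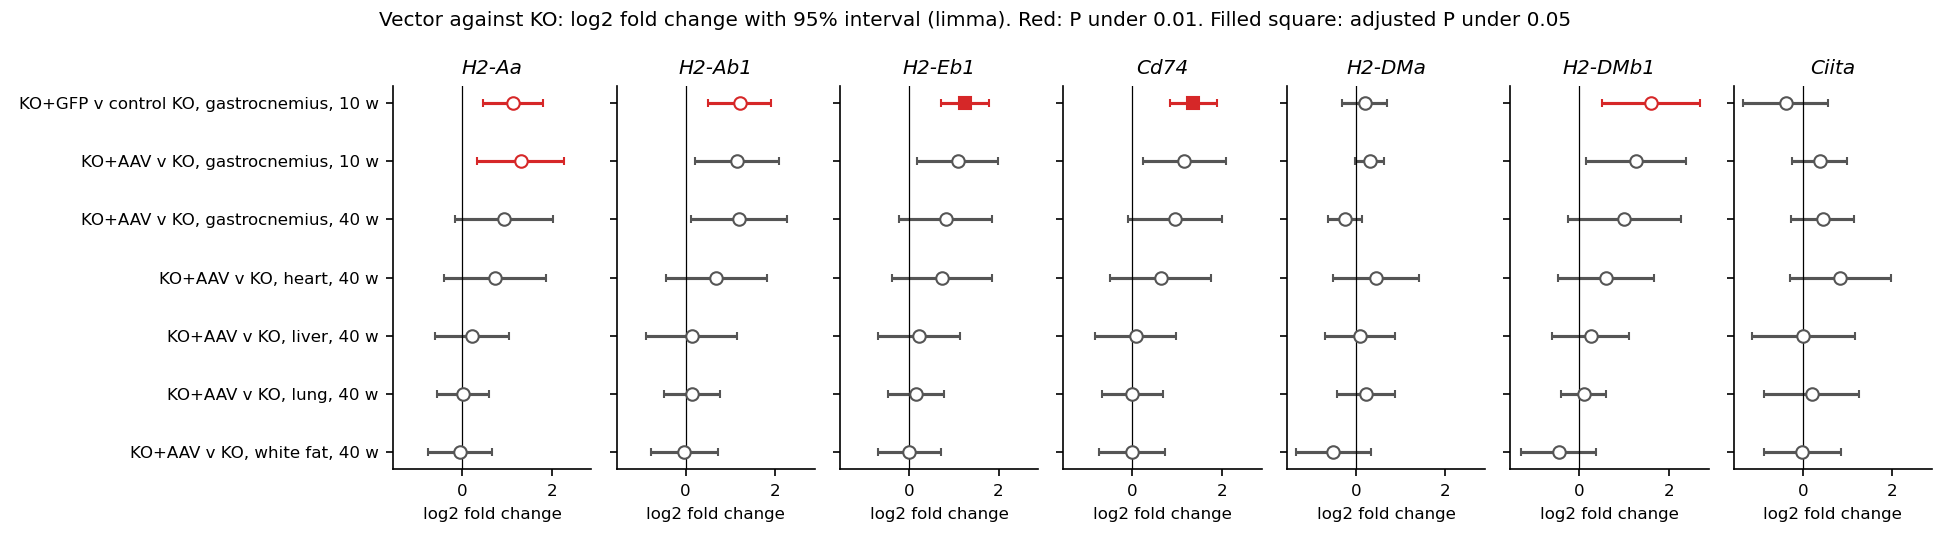
Log2 fold change with its 95% interval for each class II gene in the 7 vector against no-vector comparisons (gastrocnemius at 10 and 40 weeks with the *Bmal1* vector, gastrocnemius at 10 weeks with GFP, and lung, heart, liver and white fat at 40 weeks), red where P was under 0.01 and a filled square where the adjusted P was under 0.05. In muscle *H2-Aa* lies at 1.31, 0.93 and 1.14, and in lung at 0.02 with an interval from −0.57 to 0.61.

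In the other tissues of the 40-week KO+AAV mice no member was a DEG by limma, edgeR or DESeq2, and none had an unadjusted P under 0.05. The share of all genes called was 3.96% in lung, 0.0829% in heart, 0.546% in liver and 0.0711% in white fat, so these comparisons differed widely in how much they called at all. The smallest exact permutation P that 4 against 4 allows is 0.0286, and no member reached it in any of the 4 tissues. The labels do not say whether these tissues and the 40-week muscles came from the same mice. They may therefore not stand as separate evidence.

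In lung *H2-Aa* held 11116, 17701, 16678 and 18518 normalized counts in KO and 23207, 9482, 16271 and 17971 in KO+AAV mice. KO+AAV replicate 1 was the highest and KO+AAV replicate 2 the lowest of the 8, so the KO libraries lay inside the KO+AAV range. The difference was 0.02 ± 0.26 (95% interval −0.57 to 0.61) and the median over the 7 genes 0.15. The summed B cell markers were also highest in KO+AAV replicate 1, at 22216, and were 2516 in KO+AAV replicate 2 and 2047 in KO replicate 1, the libraries with the least *H2-Aa*, against 5894 to 10825 in the others. Heart markers were higher in KO+AAV lung (41047 to 134605 summed counts) than in KO lung (2557 to 25477). All 4 of them were DEGs, as were 3.96% of all genes. The part of either in the lung values was not tested.

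Heart held 406, 760, 793 and 1646 counts of *H2-Aa* in KO and 2343, 686, 1036 and 1863 in KO+AAV mice. The groups overlapped, with KO+AAV replicate 2 below 3 KO libraries. All 7 genes were higher on average in KO+AAV heart, with a median of 0.68, and *H2-Aa* differed by 0.74 ± 0.50 (95% interval −0.41 to 1.88), an interval that reaches past the muscle values. *Ciita* differed by 0.84 ± 0.49 and was a DEG when KO+AAV replicate 2 was left out, at 1.31 (limma, adjusted P = 0.925). Without KO replicate 2, the library with liver markers, the median was 0.69 and *H2-Aa* was at 0.71.

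Liver held 294, 892, 395 and 516 counts of *H2-Aa* in KO against 834, 350, 452 and 756 in KO+AAV mice, a difference of 0.22 ± 0.37, and the 7 genes had a median of 0.13. White fat held 8174, 6285, 18672 and 11382 in KO against 9296, 10100, 10816 and 9332 in KO+AAV mice. KO replicate 3 was by far the highest white fat library and also had the highest B cell marker sum, 2317 where the others had 258 to 944. *H2-DMa* in white fat did not follow *H2-Aa*: KO replicate 2, lowest for *H2-Aa*, was highest for *H2-DMa* at 1861, with 656, 1744 and 754 in the other KO and 677 to 925 in the KO+AAV libraries. The median of the 7 was −0.03, and −0.27 without KO replicate 2, and *H2-DMa* differed by −0.51 ± 0.36, or −0.27 without that library.

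Resting levels of *Cd74* and *H2-Aa* differed far more between lung or white fat and heart, liver or muscle than between vector groups. Levels were set per length, as RPKM (reads scaled to exon length and to the library's total reads on genes), over KO and KO+AAV mice at 40 weeks together. *Cd74* was at 415 ± 128 in lung, 202 ± 79.2 in white fat, 26.6 ± 15.6 in heart, 16.2 ± 7.69 in liver (SD, n = 8 each) and 9.53 ± 6.30 in gastrocnemius (SD, n = 10). Without KO replicate 2 the muscle value was 10.2 ± 6.33 (SD, n = 9). Lung and white fat lay above heart, liver and muscle without overlap, from 119 upward against at most 50. Neighbours in this order overlapped, lung (207 to 605) with white fat (119 to 378), heart (7.83 to 50) with liver (7.47 to 29.7), and liver with muscle (1.08 to 18.8).

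*H2-Aa* followed that order, at 98.6 in lung, 61.6 in white fat, 7.66 in heart, 3.59 in liver and 2.54 RPKM in gastrocnemius. So did *H2-DMb1*, at 34.5, 13.3, 1.35, 0.921 and 0.587. *H2-DMa* did not: muscle, at 2.75 (1.75 to 3.34), lay above heart (0.63, at most 1.13) and liver (0.528, at most 0.720). *Ciita*, at 4.70 in lung and 1.19 in white fat, was at 0.201 in muscle, 0.170 in heart and 0.0919 in liver. The 40-week muscle libraries came from another site than the other tissues. At ICBR, the site of the other tissues, 10-week muscle held *H2-DMa* at 0.457 RPKM in KO, 0.63 in KO+AAV and 0.458 in WT, against 2.25, 2.46 and 2.66 at Novogene. Heart at ICBR, at 40 weeks, was at 0.54 in KO and 0.71 in KO+AAV mice, so the high muscle level of *H2-DMa* was seen at Novogene alone. *Ciita* was at 0.0780 in KO, 0.134 in KO+AAV and 0.0551 in WT muscle at ICBR. *Cd74* in those 3 groups was at 11.0, 18.0 and 9.20, and in heart at 22.1 in KO and 31.1 in KO+AAV mice.

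**Figure D4:**
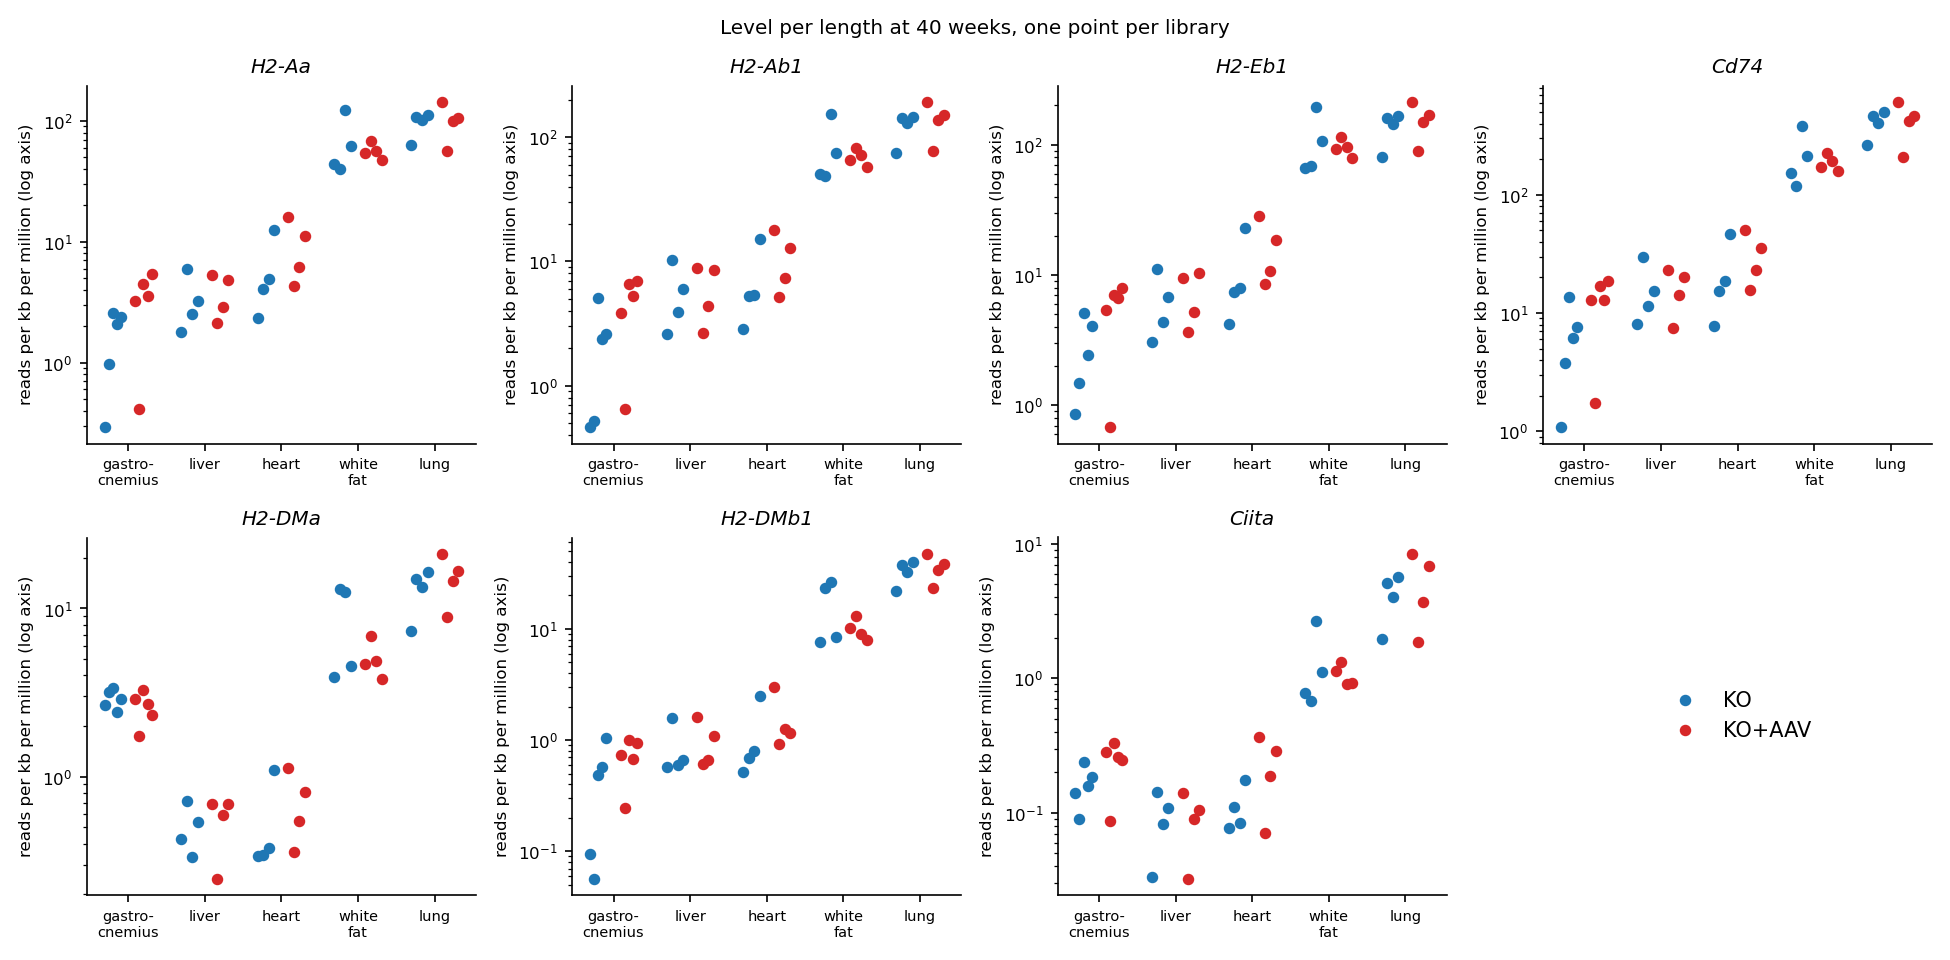
Level of each class II gene in RPKM (reads scaled to exon length and library total, log vertical axis) in gastrocnemius, liver, heart, white fat and lung at 40 weeks, 1 point per library, blue for KO and red for KO+AAV. The KO and KO+AAV points overlap in every tissue, and *Cd74* spans from 1.08 in a muscle to 605 in a lung.

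Across the 34 gastrocnemius libraries of the main experiment, with the mean of each group at each site removed, the class II genes varied together to different degrees. *H2-Ab1*, *H2-Aa*, *H2-Eb1* and *Cd74* correlated with the mean of the other members at Pearson r = 0.95, 0.95, 0.94 and 0.94, *H2-DMb1* at 0.75, *Ciita* at 0.61 and *H2-DMa* at 0.45. The genes most like the members' mean in these residuals were *Cd248* (r = 0.93), *Adgre1* (0.92), *Col3a1* (0.90), *Antxr2* (0.89), *Sdc2* (0.89), *Col6a2* (0.88), *Col6a3* (0.88), *Col5a1* (0.88), *Cybb* (0.87) and *Fcrls* (0.87). *Adgre1* encodes the macrophage antigen F4/80, *Cybb* a subunit of the phagocyte oxidase, and *Col3a1*, *Col6a2*, *Col6a3* and *Col5a1* collagen chains of connective tissue. Without KO replicate 2 at 40 weeks the 7 members were at 0.53 (*H2-DMa*) to 0.97 (*H2-Ab1*) and these 10 genes at 0.87 to 0.93. Without KO+AAV replicate 2 and KO replicate 1 at 40 weeks the 10 values were 0.81 to 0.89. The libraries share depth and dissection within a muscle, and these correlations are given as a description.

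Because class II RNA in muscle is usually carried by immune cells, markers of those cells were counted beside the members. In the GFP experiment 11 of 12 macrophage markers were tested, and their median difference was 1.44. Of these, 8 were DEGs and higher in KO+GFP muscle, where 8.24% of all genes were DEGs in either direction. Of the 8, 7 rose at an adjusted P under 0.05, which 3.09% of all genes met. *C1qa*, a chain of the complement component C1q made by macrophages, rose by 2.47 ± 0.24 (65.0 against 10.9 normalized counts, adjusted P = 0.00037 by limma), *Cd163*, a scavenger receptor, by 1.67 ± 0.24 and *Csf1r*, the macrophage growth factor receptor, by 1.12 ± 0.17. The summed macrophage markers were 690, 996 and 839 in KO+GFP and 300, 456 and 291 in control KO muscle, without overlap. *Lyz2*, the most abundant of them, rose by 1.44 ± 0.30.

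Other cell types moved in the same libraries. Of 3 dendritic cell markers tested, *Zbtb46* (0.76 ± 0.17, adjusted P = 0.0315 by limma), a conventional dendritic cell factor also found in endothelium, and *Clec10a* (2.13 ± 0.52, adjusted P = 0.0489 by limma), a lectin of dendritic cells and macrophages, rose. The summed dendritic cell markers were 149, 135 and 131 in KO+GFP and 65.5, 95.5 and 78.8 in control KO muscle, and *Ccr7* was at 0 in most libraries. Of 6 fibroblast markers 4 were DEGs (8.24% of all genes) and 3 rose at an adjusted P under 0.05 (3.09% of all genes). *Dcn*, *Pdgfra* and *Lum* were at 0.85, 1.0 and 1.17. The sum of all 6 was 7670, 13218 and 9953 against 3567, 6368 and 11601, so it overlapped between the groups. None of the 6 endothelial markers was a DEG and their median was −0.02. The summed counts of 6 myofiber markers, led by *Myh4*, a fast myosin heavy chain, were 852630, 817332 and 815013 in KO+GFP and 981772, 1167890 and 1072780 in control KO muscle, lower in KO+GFP without overlap. Their median difference was −0.29, with 1 DEG higher and 1 lower, and their part in the class II values was not tested.

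With the *Bmal1* vector at 10 weeks, the fitted differences of all 12 macrophage markers were positive (median 1.23) and 1 was a DEG, *C1qc*, at 134 against 44.5 normalized counts (1.63 ± 0.49, adjusted P = 0.232 by limma). In this comparison 2.63% of all genes were DEGs. The macrophage sum was 902, 881 and 1433 at ICBR and 1318, 797 and 491 at Novogene in KO muscle, and 1184, 1595, 958 and 2850 at ICBR and 8820, 1569 and 1103 at Novogene in KO+AAV muscle. Without KO+AAV replicates 4 and 5 the macrophage median was 0.57 with no DEG, where the class II median was 0.85. Of 7 dendritic cell markers none was a DEG (median 0.37), with sums of 145 to 202 in KO and 143 to 370 in KO+AAV muscle. Fibroblast markers had a median of 0.83 and no DEG.

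At 40 weeks the macrophage median was 0.08 with 0 of 12 DEGs, beside a class II median of 0.93. Without KO replicate 2, whose *Arntl* count went against its label, these medians were 0.19 and 0.70. The macrophage sums of KO+AAV muscle (768, 330, 1300, 1033 and 1308) lay within those of KO muscle (469, 1234, 1369, 757 and 703) but for replicate 2. The class II sums were 1140, 250, 1389, 1201 and 1533 in KO+AAV and 288, 491, 1041, 666 and 826 in KO muscle. Dendritic cell markers had a median of 0.38 at this age (0.40 without KO replicate 2), with no DEG. The part of these cell types in the class II values was not tested.

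B cell markers, the other usual class II carriers, were near the limit of detection in muscle. None of 8 had a mean above 5, *Cd79b* being the most abundant at 3.86 normalized counts. The 6 natural killer cell and 6 lymph node stroma markers were all below that level too, led by *Klrd1* at 1.22 and *Ccl21a* at 2.84, and of 10 T cell markers *Cd3e* and *Lag3* were tested and neither was a DEG.

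**Figure D5:**
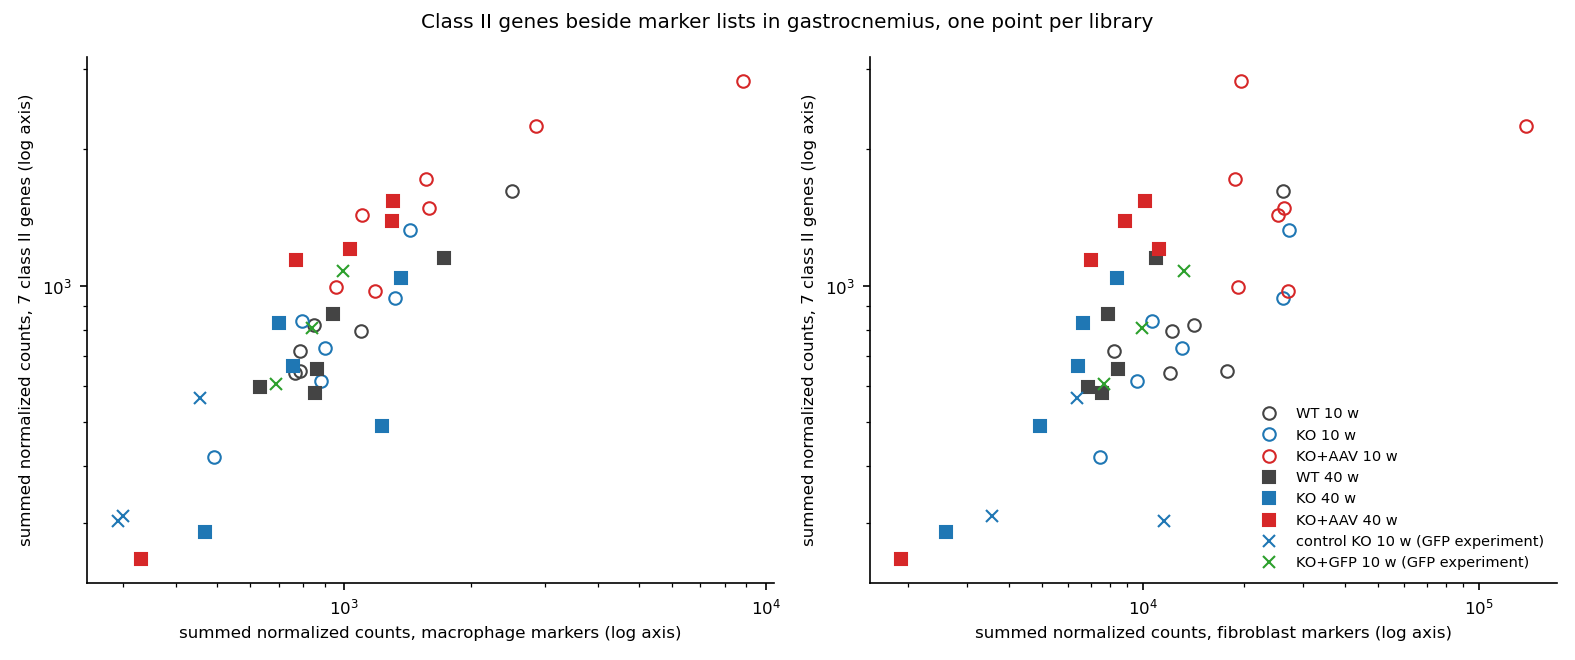
Summed normalized counts of the 7 class II genes against the summed macrophage markers (left) and the summed fibroblast markers (right) in the 40 gastrocnemius libraries, both axes logarithmic, coloured by group. KO+AAV replicate 5 at 10 weeks lies far out in macrophage markers (8820) and replicate 4 in fibroblast markers (138139), and the class II sum is lowest in 40-week KO+AAV replicate 2 (250).

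The rest of the class II pathway was counted from lists. The DNA-binding partners of CIITA on the X and Y boxes were *Rfx5*, *Rfxap*, *Rfxank*, *Nfya*, *Nfyb*, *Nfyc* and *Creb1*. All 7 were tested in muscle and none was a DEG with the *Bmal1* vector at 10 weeks (median −0.05), at 40 weeks (0.01, and −0.08 without KO replicate 2) or with GFP (−0.04). *Rfxap* was the nearest at 10 weeks, at 286 against 243 normalized counts (0.23 ± 0.10, adjusted P = 0.474 by limma), and *Rfx5* was at 207 against 217. With KO+AAV replicates 4 and 5 left out *Rfxap* was a DEG.

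Genes that cut antigen and invariant chain or remove class II from the surface numbered 8. All were tested with the *Bmal1* vector at both ages and 7 with GFP, where *March1* was not, and none of those tested was a DEG. Their medians were 0.49 and −0.06 with the *Bmal1* vector at 10 and 40 weeks and 0.24 with GFP, and the 40-week median was 0.07 without KO replicate 2. *Ctss*, cathepsin S, which trims the invariant chain, was at 6.73 to 71.1 normalized counts in KO and 42.9 to 120 in 6 of the 7 KO+AAV libraries at 10 weeks, with 1716 in KO+AAV replicate 5. It differed by 1.68 ± 0.64 (adjusted P = 0.405 by limma), and by 0.92 ± 0.50 without that library. *Ifi30*, the lysosomal thiol reductase, was at 101 against 42.7 (1.0 ± 0.39, and 0.64 without it) and *Ctsh* at 167 against 102 (0.69 ± 0.28, and 0.54 without it). *Ctsb*, *Ctsl* and *Lgmn*, broadly expressed lysosomal proteases, differed by 0.28, 0.21 and 0.29 (0.11, 0.13 and −0.05 without it), and the ubiquitin ligases *March1* and *March8*, which lower surface class II, by 0.90 and −0.01 (0.60 and −0.03 without it).

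The accessory class II genes *H2-DMb2*, *H2-Oa*, *H2-Ob* and *H2-Eb2* fell below the filter in muscle, *H2-Ob* being the most abundant at 4.37 normalized counts. *H2-Oa* and *H2-Ob* encode the chains of H2-O, which restrains H2-DM chiefly in B cells. In lung, where all 4 were tested, none was a DEG and the median was −0.02.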

How the data were processed

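Members and gene lists were chosen with earlier results of these data known. The deposited values are a normalized signal: per the labels and methods, HISAT2 placed the reads on GRCm38, HTSeq gave a count per gene, and the authors divided each library's counts by a DESeq2 size factor. Annotation release and strand setting are not given in the sources used here. Dividing by the smallest step recovered whole reads for 100% of values (tolerance 0.01). Gene symbols came from a GENCODE table for 55141 of 55401 genes. These values were tested with limma 3.58.1 (R 4.3.3, trend) on log2(normalized count + 1), so fold changes of low genes are understated. Genes with a mean above 5 were kept. The 34 gastrocnemius libraries were fitted as 6 groups with sequencing site, the GFP experiment and each tissue alone. A DEG had P under 0.01, as in the study, and "rose" or "fell" needs a Benjamini-Hochberg adjusted P under 0.05 over all genes tested. Alternatives were edgeR 4.0.16 and DESeq2 1.42.0 on recovered reads, a pseudocount of 0.5, other filters, sites and left-out libraries, and permutation tests used Python 3.11.15 with numpy 2.4.6. The fits were tested on simulated data. Named were the 7 members, *Arntl*, the class II lists, of the other 18 lists the most abundant gene and up to 3 of smallest P, and the 10 genes most correlated with the members. *H2-Ea* matched no row. The labels do not say whether replicates were separate animals, so p-values measure the spread between libraries.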

Additional observations from a re-analysis of the deposited data

Results flagged for a closer look

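Of 98 groups of 4 to 7 libraries tested over the 7 class II genes, 4 held a library far from the rest of its group, where chance gives about 5%. In WT muscle *Cd74* reached 529 normalized counts in replicate 5 at 10 weeks, the next library being at 271, and 372 in replicate 5 at 40 weeks, the next being at 198. In KO heart *H2-DMa* was at 133 in replicate 4 and at 58.3 or less in the others. In KO liver *H2-DMb1* was at 103 in replicate 2, the next being at 46.4. In both WT muscles the macrophage marker sum was also the highest of its group, 2508 at 10 weeks and 1727 at 40 weeks, and its part in the *Cd74* values was not tested.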

How the results depend on the processing

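No called value changed sign, and 90 of 1494 single-gene values changed sign where neither setting gave P under 0.01. With the *Bmal1* vector at 10 weeks the 1 DEG became 0 with a pseudocount of 0.5, without the filter, with a mean above 50, without the site term, at either site alone or without KO+AAV replicates 4 and 5, 3 with edgeR or library quality weights, 4 with DESeq2 or the 2 groups alone, and 5 with a replicate block. Replicate numbers were taken not to pair samples, since in no comparison did every same-numbered pair correlate above 0.1: 0 of 6 pairs did in 10-week muscle, 3 of 5 in 40-week muscle (highest 0.37), 0 of 3 with GFP, 2 of 4 in lung, 1 of 4 in heart, 0 of 4 in liver and 3 of 4 in white fat (−0.38 to 0.58). Not every sample correlated best with its own number in any of them. These pairs were within a tissue, and same-numbered libraries of different tissues were not compared. At 40 weeks *H2-Aa* was lowest of its group in KO+AAV replicate 2 and in KO replicate 1 in muscle, lung, heart and liver. This was not so in white fat. Whether the tissues came from the same mice was not tested. ICBR alone gave a median of 0.58. Leaving out 1 library gave 0 to 4 DEGs and medians of 0.87 (without KO replicate 7) to 1.36. At 40 weeks quality weights gave 4 DEGs, and leaving out 1 library 0 to 4 with medians of 0.44 to 1.45. WT against KO+AAV at 10 weeks went from 0 DEGs to 3 with edgeR or DESeq2, 2 with quality weights, 1 at ICBR alone, 4 with the 2 groups alone and 5 with the block. KO muscle between ages had 1 DEG without the site term. With GFP the 5 DEGs became 2 with DESeq2 and 4 with the block, 2 to 5 leaving out 1 library (2 without control KO replicate 1 or 3, 3 without KO+GFP replicate 2 or 3), with medians of 0.95 to 1.55. Leaving out 1 library gave medians of 0.36 to 0.99 in heart (0 to 1 DEG), −0.05 to 0.45 in liver, −0.07 to 0.39 in lung and −0.27 to 0.26 in white fat, with 0 DEGs in those 3. The block left the counts of the other comparisons it could be fitted to at 0. Outside the main fit, edgeR and DESeq2, the share of all genes called under each setting is not given. The counts of DEGs under those settings are therefore not set against all genes. The causes of these shifts were not tested. Leaving out KO+AAV replicates 4 and 5, KO replicate 2 of 40-week muscle, heart and white fat, *H2-DMa* with *Ciita*, KO+AAV replicate 5 for the processing genes, and the site-by-group cells were chosen after seeing the data.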

Other observations

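The fitted differences of all 11 class I presentation genes were positive with the *Bmal1* vector in 10-week muscle, with a median of 0.30, and *H2-D1*, a class I heavy chain, was the 1 DEG at 1896 against 1465 normalized counts (0.36 ± 0.13, adjusted P = 0.342 by limma). In that comparison 2.63% of all genes were DEGs. With GFP their median was 0.09 and none was a DEG, and at 40 weeks it was 0.11 (0.0023 without KO replicate 2). Interferon gamma targets had medians of 0.20 at 10 weeks, 0.53 at 40 weeks and 0.17 with GFP, and *Igtp*, an immunity-related GTPase, was a DEG at 40 weeks (175 against 106 normalized counts, 0.73 ± 0.20, adjusted P = 0.111 by limma). Type I interferon targets had medians of 0.37, 0.53 and 0.38, with *Isg15* (1.32 ± 0.39) and *Usp18* (1.36 ± 0.48) as DEGs at 40 weeks and *Oas2* (0.96 ± 0.26) with GFP. DEGs made up 3.25% of all genes at 40 weeks and 8.24% with GFP. None of the class I and interferon genes named here passed an adjusted P of 0.05. Without KO replicate 2 of 40-week muscle, whose *Arntl* count went against its label, *Igtp* was still a DEG (0.66 ± 0.21, adjusted P = 0.207 by limma) and *Isg15* (0.95) and *Usp18* (0.53) were not. The 40-week medians were then 0.26 for interferon gamma targets and 0.29 for type I interferon targets, and 6 of the 11 class I differences were positive.

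Costimulatory genes gave no DEG, with medians of 0.44, 0.64 (0.18 without KO replicate 2) and 0.06. White fat markers had medians of 0.94, 0.82 (0.76 without KO replicate 2) and 0.72 in muscle with no DEG. At 10 weeks the sites differed in direction. The mean white fat marker sum was 1085 in KO+AAV against 365 in KO muscle at ICBR, and 185 against 263 at Novogene. Among the 6 myofiber markers with GFP, whose sum was lower in KO+GFP muscle without overlap, *Myh1*, a fast myosin heavy chain, rose by 1.29 and *Myh4*, another, was a DEG at −0.60. Of 6 neutrophil markers 2 were tested at 40 weeks and *S100a9* was a DEG at −2.24, as were 3.25% of all genes in either direction. Without KO replicate 2, however, its mean was not above 5 and it was not tested. *Myh6*, the only heart marker tested in muscle, was a DEG with GFP at 2.67, where 8.24% of all genes were DEGs. Its mean over the 6 libraries of the GFP experiment was 9.45 normalized counts, near the filter of 5.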
